A study of Homo sapiens with 6 samples.

Results

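The HOX cluster genes are the human genes of the HOXA, HOXB, HOXC and HOXD families, each named by a cluster letter and a position number. They were taken as every protein-coding gene whose annotated symbol is HOXA, HOXB, HOXC or HOXD followed by a number. The annotation (GENCODE release 29, GRCh38) lists 39 such genes, and 36 of them had a row among the 18318 genes of the count table, namely 10 of HOXA, 9 of HOXB, 9 of HOXC and 8 of HOXD. HOXA9, HOXB1 and HOXD11 were not analysed here. The data are RNA sequencing read counts from A375, an established human melanoma line, in 2 groups of 3 libraries. The SLNCR libraries came from cells given a pcDNA3.1 plasmid in which SLNCR, a long non-coding RNA, is expressed, and the empty vector libraries from cells given the backbone alone. The SLNCR libraries are titled Full_Length, and their genotype is given as wild type SLNCR. Per the labels, the plasmid carries a CAG promoter and a puromycin resistance gene, both groups were transfected with the same lipid reagent, and RNA was taken after 48 h in puromycin at 2 µg/mL. The labels call the libraries biological replicates of the 1 line without saying whether they came from separate cultures, so p-values measure the spread between these libraries. The study asked which genes SLNCR regulates in these cells.

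HOX genes encode homeodomain transcription factors, which bind DNA through a helix that the homeobox part of the gene encodes. The genes of a cluster lie side by side in the order in which they act along the body axis, from anterior (low numbers) to posterior (high numbers), and genes with the same number in different clusters are paralogs. Adult cells commonly keep a part of the pattern of the place they came from, through chromatin marks laid down by Trithorax and Polycomb proteins. In melanoma, HOXB7 is known as an activator of the growth factor gene FGF2. In mouse, Hoxc9 sets the identity of thoracic motor neurons and represses more anterior Hox genes there.

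The coding sequence of the recognition helix shows how alike, and how distinct, these genes are at the level of sequencing reads. A stretch of 60 bases that ends within this helix was read from one annotated transcript of each gene (GENCODE release 29 transcripts). It is shown for HOXC9, for 2 of its paralogs, for its neighbours HOXC6 and HOXC10, and for the other HOX genes whose values are described in most detail, 5′ to 3′ on the sense strand, with capitals at the bases that differ from HOXC9.
HOXC9: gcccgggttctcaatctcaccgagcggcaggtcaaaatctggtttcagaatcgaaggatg
HOXD9: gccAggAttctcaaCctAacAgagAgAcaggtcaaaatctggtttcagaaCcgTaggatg
HOXB9: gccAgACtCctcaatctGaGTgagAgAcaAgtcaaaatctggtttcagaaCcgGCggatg
HOXC6: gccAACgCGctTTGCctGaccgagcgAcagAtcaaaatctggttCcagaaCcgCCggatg
HOXC10: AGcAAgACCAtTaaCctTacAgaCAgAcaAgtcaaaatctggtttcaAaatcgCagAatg
HOXB2: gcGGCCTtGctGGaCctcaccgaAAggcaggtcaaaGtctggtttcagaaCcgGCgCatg
HOXB7: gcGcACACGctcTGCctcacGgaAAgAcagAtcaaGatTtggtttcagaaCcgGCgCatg
HOXD9 differed from HOXC9 at 9 of the 60 bases, HOXB9 at 13, HOXC6 at 16 and HOXC10 at 19. Over all other HOX genes the number of differing bases was 9 to 23. Protein-coding transcripts of HOXC9 and of any other HOX gene shared an exact run of at most 23 bases, with HOXD9. The run was 17 for HOXC6 and for HOXC10. Other annotated transcripts were not compared, and the exons of HOXC9 and HOXC6 overlap by 73 bases on the same strand. The reads were 150 bases long. Between the longest protein-coding transcripts of any 2 HOX genes, the longest exact run was 62 bases, for HOXB3 and HOXD3. Over all annotated transcripts some HOX genes share more, such as HOXD10 and HOXD11 with 452 exon bases on the same strand.

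The libraries held 9287450 to 10822083 counts, of which 2653 to 3110 fell on HOX genes, so single HOX genes rest on few counts. The transfected RNA (LINC00673) had 1786, 2569 and 2040 counts in SLNCR libraries 1, 2 and 3, against 195, 194 and 193 in empty vector libraries 1, 2 and 3, 3.38 on the log2 scale (edgeR adjusted p = 3.11e-05). The label for cell type is epithelial, and the 7 keratinocyte and epithelial markers (KRT5, KRT14, KRT1, CDH1, EPCAM, TP63 and DSG3) summed to only 1.05 to 1.15 CPM (counts scaled to a common library size with TMM factors) in SLNCR libraries and 1.2 to 1.75 CPM in empty vector libraries. The melanocyte factors MITF (95.6 CPM with SLNCR, 85.4 CPM with empty vector) and SOX10 (12.7 CPM with SLNCR, 13.4 CPM with empty vector) were present. The pigment genes MLANA, PMEL and DCT stayed at or below 1.52 CPM in both group means, while AXL, a marker of poorly differentiated melanoma, had 828 CPM with SLNCR and 870 CPM with empty vector.

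A375 expressed HOX genes from all 4 clusters. With a mean of at least 10 counts over the 6 libraries as the limit, 27 of the 36 genes were expressed: 7 of 10 in HOXA, 9 of 9 in HOXB, 8 of 9 in HOXC and 3 of 8 in HOXD. Levels of different genes are compared as CPM per kilobase of merged exon. Summed over its genes, the HOXC cluster had 47.2 ± 0.80 CPM per kilobase with SLNCR and 50.2 ± 2.31 with empty vector (SD, n = 3 each), which was 39.3% to 41.1% of the HOX total in every library. HOXB followed with 36.9 ± 1.05 CPM per kilobase with SLNCR and 37.2 ± 0.27 with empty vector, then HOXA with 25.7 ± 1.02 with SLNCR and 27.7 ± 0.73 with empty vector. HOXD had 8.60 ± 0.63 CPM per kilobase with SLNCR and 8.86 ± 0.78 with empty vector. This order of the clusters was the same in all 6 libraries. The expressed HOX genes were of modest abundance, with a median of 2.65 CPM per kilobase over all libraries beside 6.49 for all tested genes.

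**Figure D1:**
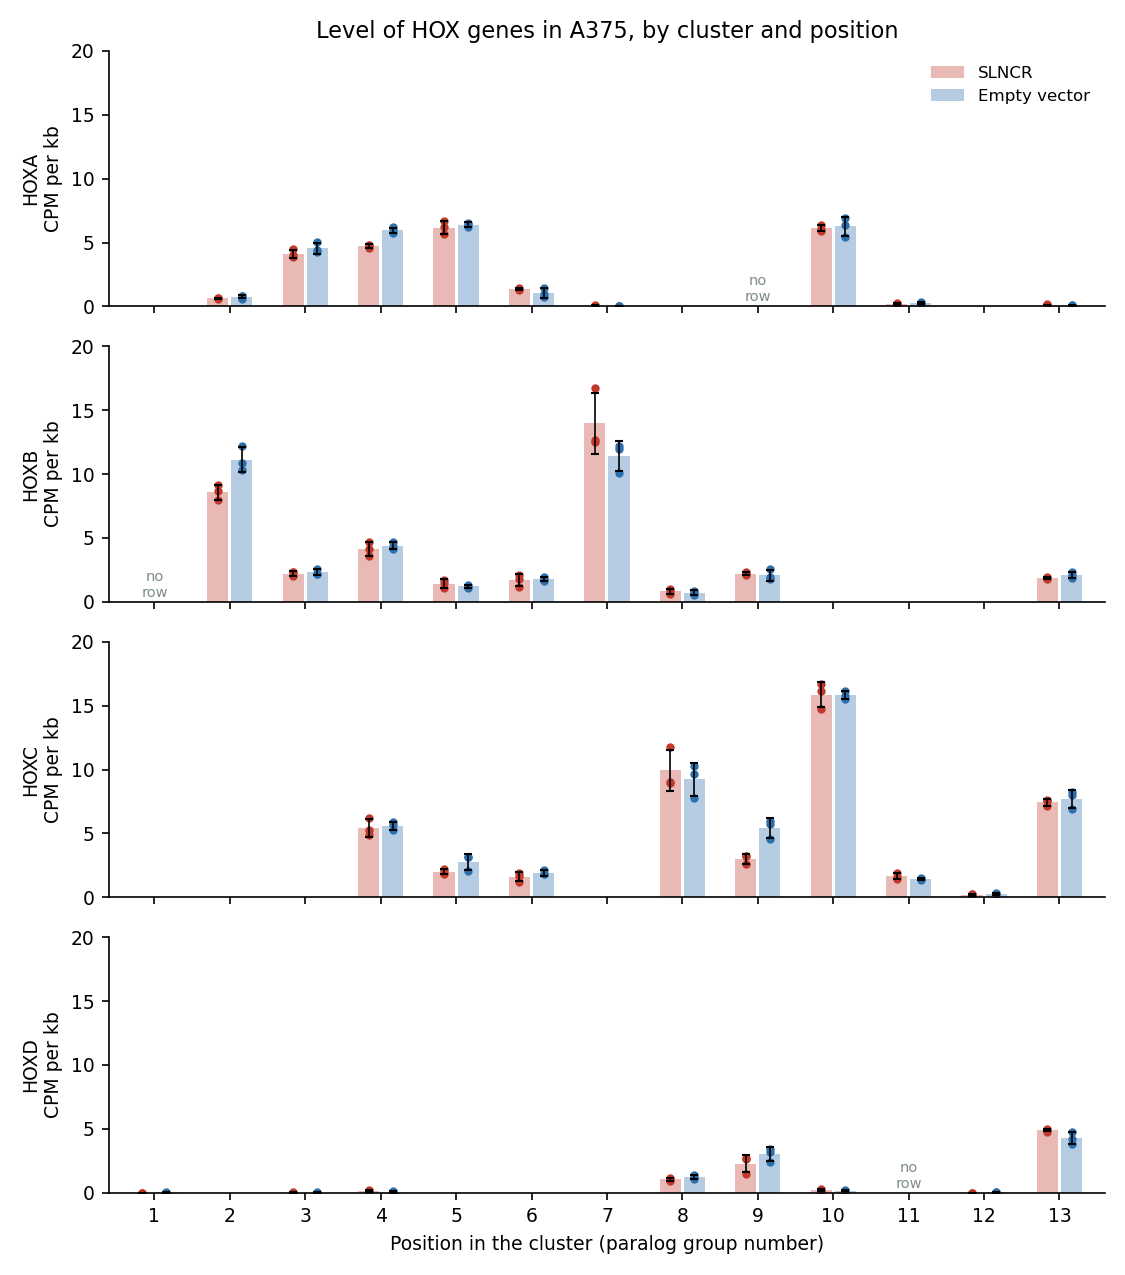
Level of 35 of the 36 HOX genes with a row in the table, in CPM per kilobase of merged exon, by cluster (panels) and position number (horizontal axis), for SLNCR (red) and empty vector (blue). Bars are means of 3 libraries, error bars 1 SD and points single libraries. HOXC10, HOXB7, HOXC8 and HOXB2 stand above the rest, and HOXD has values above 1 CPM per kilobase at positions 8, 9 and 13 alone.

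By position, expression did not simply follow one end of the clusters. Central genes (positions 4 to 8) summed to 54.6 ± 4.27 CPM per kilobase with SLNCR and 53.8 ± 1.59 with empty vector, and posterior genes (positions 9 to 13) to 46.1 ± 2.42 with SLNCR and 49.0 ± 1.96 with empty vector (SD, n = 3 each). Anterior genes (positions 1 to 3) had the lowest sum, at 17.8 ± 0.19 CPM per kilobase with SLNCR and 21.2 ± 0.94 with empty vector. The classes differ in size, with 15 central, 14 posterior and 7 anterior genes, of which 13, 9 and 5 were expressed. The sums therefore follow the number of genes as well as their levels. The anterior sums were 17.73, 17.67 and 18.02 in SLNCR libraries 1, 2 and 3, against 21.65, 20.07 and 21.73 in empty vector libraries 1, 2 and 3, without overlap. Much of the anterior sum was HOXB2, described below with its change.

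By merged exon length, the 4 highest HOX genes came from HOXC and HOXB. HOXC10, a posterior gene known from lumbar and hindlimb patterning, had the highest group means. They were 15.9 ± 1.003 CPM per kilobase in SLNCR libraries and 15.8 ± 0.32 in empty vector libraries. HOXB7 had 13.96 ± 2.41 CPM per kilobase with SLNCR and 11.4 ± 1.17 with empty vector. In SLNCR library 3 HOXB7 was above HOXC10, with 16.75 against 14.75 CPM per kilobase. HOXC8, a central gene, had 9.93 ± 1.60 with SLNCR and 9.23 ± 1.32 with empty vector, and HOXB2, a hindbrain patterning gene in mouse, had 8.57 ± 0.58 with SLNCR and 11.1 ± 0.97 with empty vector (SD, n = 3 each). In empty vector cells HOXB7 and HOXB2 were within 1 SD of each other, so their order is not resolved. HOXC10 was first also when the longest transcript or exon bases shared with no other gene served as length (19.0 and 17.5 CPM per kilobase with empty vector). The order below it depended on the length used: on exon bases shared with no other gene, HOXA4 had 11.32 CPM per kilobase with empty vector and HOXC8 9.23.

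In HOXA the expressed genes included positions 2 to 6 and HOXA10. HOXA10, known for its role in the uterus and in blood progenitors, had 6.11 ± 0.22 CPM per kilobase with SLNCR and 6.26 ± 0.74 with empty vector, level with HOXA5, a gene needed for lung development in mouse, at 6.17 ± 0.51 with SLNCR and 6.41 ± 0.16 with empty vector. HOXA4 had 4.73 ± 0.14 with SLNCR and 5.97 ± 0.21 with empty vector, but it shares 31.0% of its exon bases with another annotated gene on its strand, so its level is uncertain. HOXA3, a gene of pharyngeal organ development in mouse, had 4.12 ± 0.31 with SLNCR and 4.55 ± 0.43 with empty vector. HOXA6 and the branchial arch identity gene HOXA2 lay between 0.64 and 1.36 CPM per kilobase in both group means. HOXA7 had 0 to 2 counts in any library, but it shares 62.5% of its exon bases with an annotated gene on the other strand. HOXA9, between HOXA7 and HOXA10, was not analysed, so whether HOXA10 stands apart from the lower positions is not known.

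In HOXB, besides HOXB7 and HOXB2, the highest was HOXB4, a gene that expands blood stem cells, with 4.12 ± 0.53 CPM per kilobase in SLNCR libraries and 4.39 ± 0.26 in empty vector libraries. By merged exon length HOXB3, HOXB9 and HOXB13 had 1.89 to 2.32 CPM per kilobase in both group means, and HOXB13 is otherwise best known from the prostate. HOXB6, HOXB5 and HOXB8 had 0.72 to 1.78. This grouping depended on the length used. With the longest transcript and empty vector, HOXB3 had 4.10 CPM per kilobase, near HOXB4 at 4.39, while HOXB6 had 2.37 and HOXB9 and HOXB13 2.10. On exon bases shared with no other gene, HOXB3 had 2.67 and HOXB4 5.30 with empty vector. HOXB8, between HOXB7 and HOXB9 in number, averaged 15.5 counts a library beside 187 for HOXB7, although both lie on the minus strand and the annotated span of HOXB7 (chr17:48607227-48633572) encloses that of HOXB8 (chr17:48611377-48614939).

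In HOXC the highest after HOXC10 and HOXC8, by merged exon length, was HOXC13, the factor of hair and nail keratin genes, with 7.44 ± 0.27 CPM per kilobase in SLNCR libraries and 7.71 ± 0.70 in empty vector libraries. HOXC4 had 5.45 ± 0.69 with SLNCR and 5.59 ± 0.32 with empty vector. With the longest transcript as length, HOXC4 had 9.14 CPM per kilobase with empty vector, above HOXC13 at 7.71. HOXC5 (2.02 ± 0.22 with SLNCR, 2.79 ± 0.62 with empty vector), HOXC6 (1.61 ± 0.35 with SLNCR, 1.93 ± 0.22 with empty vector) and HOXC11 (1.66 ± 0.22 with SLNCR, 1.44 ± 0.08 with empty vector) were low. HOXC5 shares 59.9% of its exon bases with other annotated genes on its strand, and how reads in such bases were counted is not given in the sources used here, so its level is uncertain. HOXC12, between HOXC11 and HOXC13, had 3 to 11 counts a library.

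In HOXD the expressed genes were HOXD13, HOXD9 and HOXD8. HOXD13, the digit patterning gene, had 4.91 ± 0.11 CPM per kilobase with SLNCR and 4.27 ± 0.48 with empty vector. HOXD9, a paralog of HOXC9, had 2.27 ± 0.68 with SLNCR and 3.03 ± 0.55 with empty vector, and HOXD8 had 1.06 ± 0.10 with SLNCR and 1.23 ± 0.16 with empty vector. HOXD1, HOXD3 and HOXD4 had at most 3 counts in any library, and HOXD10 and HOXD12 at most 9. On their strand, HOXD3 shares 62.2% and HOXD4 80.5% of exon bases with another annotated gene. HOXD1 shares 58.1% with genes on either strand. How reads in such bases were counted is not known, so the low counts of these genes are uncertain. HOXD1 and HOXD12 had 0 counts in all 3 SLNCR libraries, which allows up to 3 counts, or 0.286 to 0.333 CPM, per library for counting error only. HOXA11 and HOXA13, the remaining genes below the limit, had 1 to 7 counts a library. The highest single count among these 9 low genes was 11.

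HOXC9 fell in SLNCR cells, while its neighbours HOXC10, HOXC8 and HOXC6 did not pass the test. HOXC9 (ENSG00000180806) lies at chr12:53994895-54003337 on the plus strand of GRCh38, between HOXC10 (chr12:53985065-53990279) and HOXC8 (chr12:54009106-54012362). It had 57, 56 and 39 counts in SLNCR libraries 1, 2 and 3, against 101, 87 and 70 in empty vector libraries 1, 2 and 3. Every SLNCR library was below every empty vector library, and the third library was the lowest of its group in both groups. Scaled for library size these were 5.05 ± 0.61 CPM with SLNCR and 9.11 ± 1.28 CPM with empty vector (SD, n = 3 each). The log2 fold change was -0.85 (SE 0.17, 95% interval -1.19 to -0.50), or 0.557-fold, with an edgeR adjusted p of 0.0137. The direction held when each library was left out, but the edgeR adjusted p was 0.0543 without SLNCR library 1, 0.106 without empty vector library 1 and 0.0804 without empty vector library 2. Those 3 omissions also left 1 or 2 calls among all genes. In bulk RNA, fewer cells that express a gene and less of its RNA per cell cannot be told apart.

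HOXC10 had 396, 405 and 309 counts in SLNCR libraries 1, 2 and 3, against 378, 329 and 335 in empty vector libraries 1, 2 and 3. Its groups overlapped, and its log2 fold change was 0.01 (95% interval -0.16 to 0.17, edgeR adjusted p = 0.953), an interval that lies wholly above that of HOXC9. HOXC8 had 178, 178 and 200 counts in SLNCR libraries, against 182, 133 and 178 in empty vector libraries, with a log2 fold change of 0.10 (95% interval -0.18 to 0.37, edgeR adjusted p = 0.616). HOXC8, like HOXC10, had overlapping groups and an interval wholly above that of HOXC9. HOXC6 had 63, 70 and 39 counts in SLNCR libraries 1, 2 and 3, against 64, 70 and 58 in empty vector libraries 1, 2 and 3. Its log2 fold change of -0.25 had an interval of -0.63 to 0.14 (edgeR adjusted p = 0.347), which overlaps that of HOXC9, and without SLNCR library 3 it was -0.10.

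**Figure D2:**
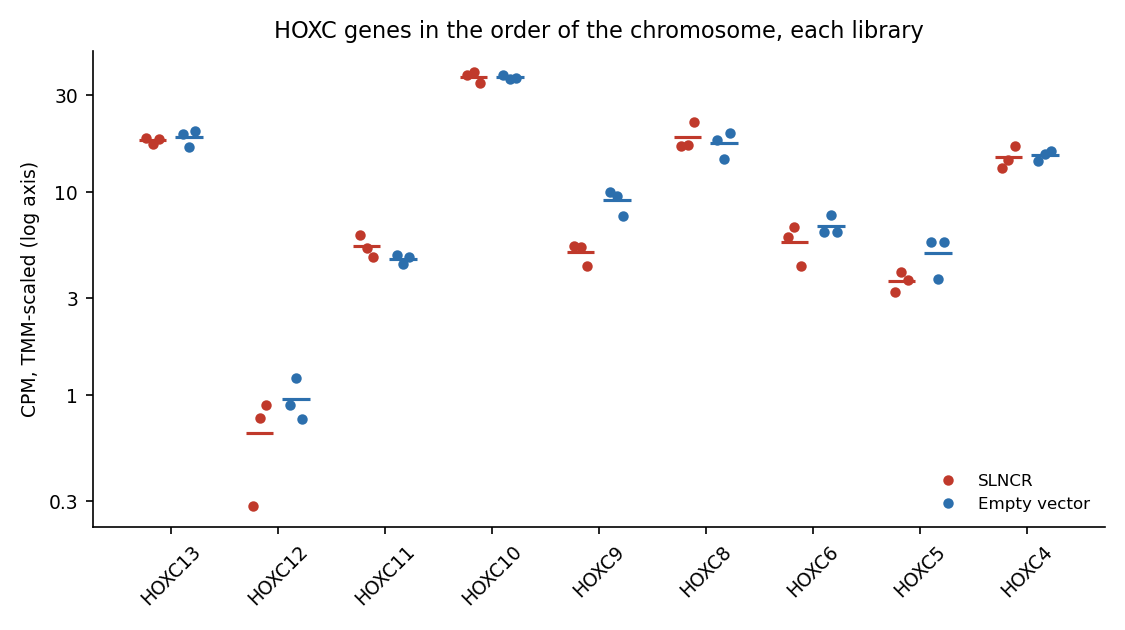
TMM-scaled CPM (log axis) of the 9 HOXC genes in each library, in chromosome order, with SLNCR in red left of empty vector in blue and a line at each group mean. HOXC9 has SLNCR points at 4.34 to 5.42 CPM and empty vector points at 7.66 to 10.1 CPM, and the groups of every other HOXC gene overlap.

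Set against its own cluster, which removes library size, HOXC9 was again lower. HOXC9 made up 5.04% (95% Wilson interval 3.91 to 6.48), 4.90% (3.79 to 6.30) and 3.95% (2.90 to 5.36) of all HOXC counts in SLNCR libraries 1, 2 and 3. In empty vector libraries 1, 2 and 3 it made up 8.58% (7.11 to 10.3), 8.73% (7.14 to 10.7) and 6.53% (5.20 to 8.17). The intervals cover counting error only, and that of empty vector library 3 overlaps those of the SLNCR libraries. The log2 ratio of HOXC9 to the summed other HOXC genes averaged -4.37 ± 0.20 with SLNCR and -3.55 ± 0.25 with empty vector (SD, n = 3 each). The difference of -0.83 had a two-sided exact permutation p of 0.10, the smallest that 20 splits of 3 against 3 allow. With single neighbours below the line, the difference was -0.85 against HOXC10, -0.95 against HOXC8 and -0.57 against HOXC6, each with the same exact permutation p of 0.10.

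HOXC9 stood in the middle of the HOX levels and changed its place between groups. With empty vector it had 5.42 ± 0.76 CPM per kilobase, within 1 SD of HOXC4 (5.59) and HOXA4 (5.97) by merged exon length. With other lengths it had 6.01, against 9.14 for HOXC4 by the longest transcript and 11.32 for HOXA4 by unshared exon bases. With SLNCR it had 3.01 ± 0.36, below HOXB4 (4.12) and above HOXD9 (2.27 ± 0.68), from which it differed by little more than 1 SD of HOXD9. Of its paralogs, HOXD9 had 53, 51 and 25 counts in SLNCR libraries 1, 2 and 3, against 65, 41 and 55 in empty vector libraries 1, 2 and 3. The groups of HOXD9 overlapped, and its log2 fold change of -0.41 (95% interval -0.87 to 0.06) did not pass the test (edgeR adjusted p = 0.199). Without SLNCR library 3 the log2 fold change of HOXD9 was -0.19, and with the GC correction described below -0.17. HOXB9 had 63, 61 and 48 counts in SLNCR libraries, against 67, 45 and 42 in empty vector libraries, with overlap and a log2 fold change of 0.08 (95% interval -0.31 to 0.46, edgeR adjusted p = 0.780).

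Gene models overlap in this region. HOXC9 shares 73 of its 1679 exon bases (4.35%) with HOXC6 on the same strand, and 9.71% with any gene on either strand, the additional partner being the antisense gene HOXC-AS2. Without knowledge of the strand setting, reads of HOXC9 and HOXC-AS2 in shared bases cannot be told apart. HOXC-AS2 had 0.84 CPM with SLNCR and 1.49 CPM with empty vector, and its log2 fold change of -0.77 (SE 0.42) did not pass the test (edgeR adjusted p = 0.203). HOXC8 shares no exon base with another annotated gene. Of the 27 tested HOX genes, 16 share exon bases with another gene on either strand.

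**Figure D3:**
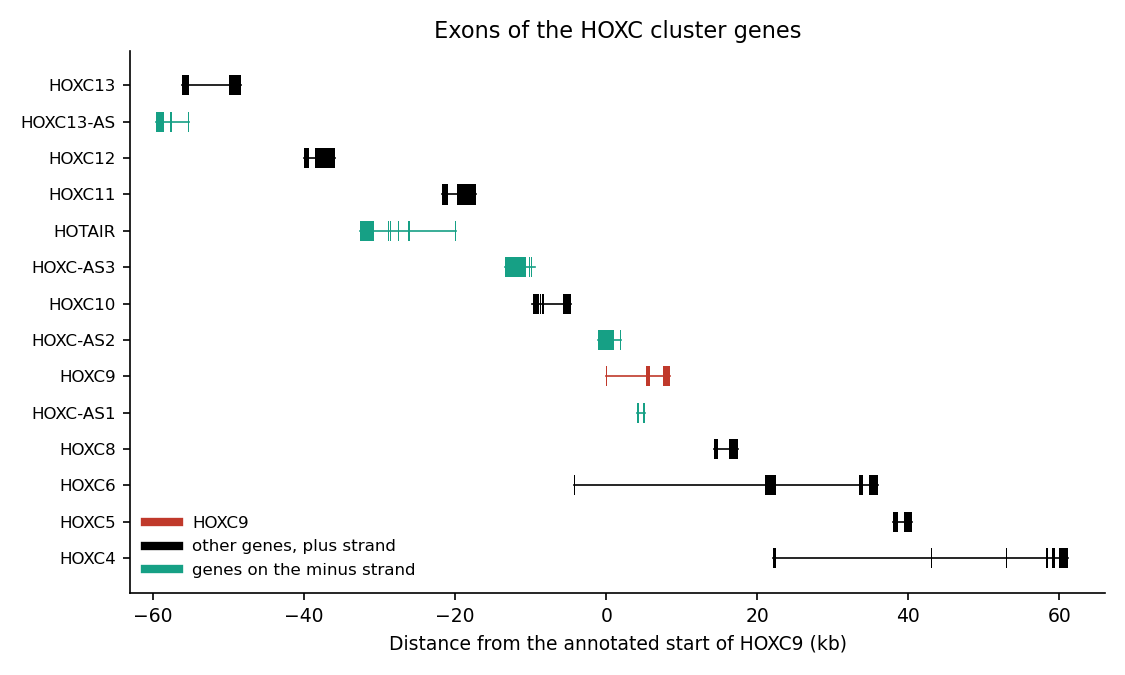
Exons (boxes) of the HOXC cluster genes and 5 antisense or non-coding genes against distance from the annotated start of HOXC9, in kb, from the GENCODE release 29 gene models. HOXC9 (red) and the other plus strand genes (black) run left to right from HOXC13 to HOXC4, with minus strand genes in green; the first exon of HOXC6 lies to the left of HOXC9.

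Over all HOX genes, 2 of the 27 tested passed the threshold, HOXC9 and HOXB2, both lower in SLNCR cells. Among all 12797 tested genes 7.67% were called lower and 8.84% higher at an edgeR adjusted p below 0.05, so the 7.41% of HOX genes called lower is close to the share among all genes. No HOX gene was called higher. At an unadjusted p below 0.05 there were 5 HOX genes (18.5%), beside 34.8% of all tested genes. The median log2 fold change of the 27 was -0.06, beside -0.01 for all tested genes, with 18 genes below 0 and 9 above. In scaled values 3 of 27 genes (HOXC9, HOXB2 and HOXA4) had every SLNCR library below every empty vector library, as did 19.1% of all tested genes, and 2 of 27 (HOXB7 and HOXD13) had every SLNCR library above, as did 19.7% of all tested genes.

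**Figure D4:**
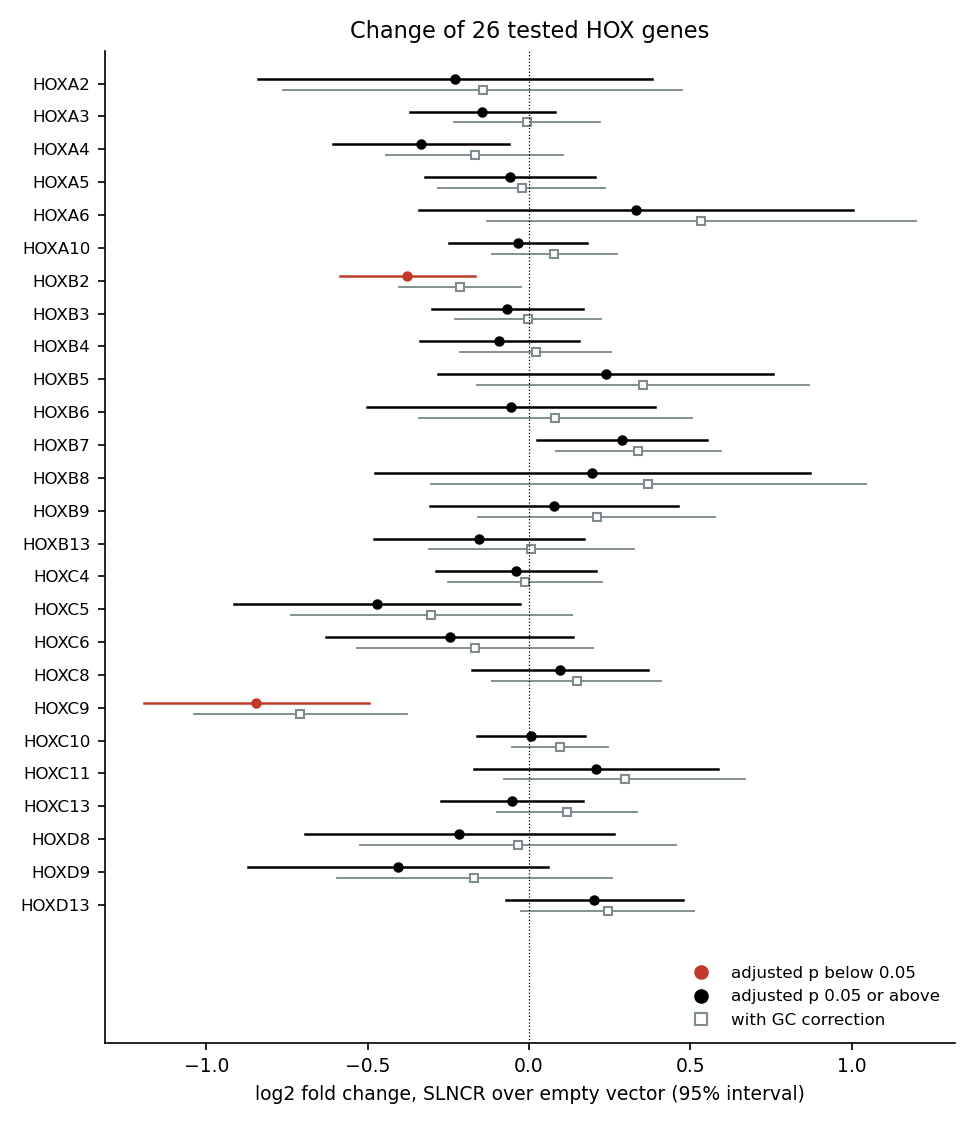
Log2 fold change (SLNCR over empty vector) of 26 of the 27 tested HOX genes with 95% intervals, in cluster order, from the edgeR fit (circles, red where the adjusted p was below 0.05) and from the fit with GC correction (grey squares). HOXC9 lies farthest from 0, at -0.85 and, with GC correction, at -0.71.

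HOXB2 had 224, 210 and 167 counts in SLNCR libraries 1, 2 and 3, against 286, 219 and 232 in empty vector libraries 1, 2 and 3. In CPM these were 21.3, 20.2 and 18.6 with SLNCR, against 28.5, 24.1 and 25.4 with empty vector, so that the groups did not overlap after scaling. Its log2 fold change was -0.38 (SE 0.10, 95% interval -0.59 to -0.17, edgeR adjusted p = 0.0210). Without SLNCR library 1, empty vector library 1 or empty vector library 2 it lay between -0.43 and -0.30 and missed the threshold (edgeR adjusted p = 0.0568, 0.143 and 0.0804). HOXB3, the next gene of the cluster, did not pass the test at -0.07 (95% interval -0.30 to 0.17, edgeR adjusted p = 0.688), nor did HOXB4 at -0.09.

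HOXB7 gave the opposite picture without passing the test. It had 203, 199 and 230 counts in SLNCR libraries 1, 2 and 3, against 154, 166 and 170 in empty vector libraries 1, 2 and 3. Every SLNCR library was above every empty vector library, and the log2 fold change was 0.29 (95% interval 0.03 to 0.55, edgeR adjusted p = 0.110). Without SLNCR library 2, HOXB7 passed the test (0.36, edgeR adjusted p = 0.0427), and without SLNCR library 3 its log2 fold change was 0.15. HOXA4, with 84, 87 and 76 counts in SLNCR libraries, against 101, 98 and 95 in empty vector libraries, had a log2 fold change of -0.33 (edgeR adjusted p = 0.0791). HOXC5, at -0.47 (SE 0.21, edgeR adjusted p = 0.121), had overlapping groups of 34, 42 and 33 counts with SLNCR and 57, 34 and 52 with empty vector. HOXD13 had 113, 117 and 99 counts with SLNCR and 94, 78 and 98 with empty vector, a log2 fold change of 0.20 (edgeR adjusted p = 0.279).

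The other tested HOX genes had overlapping groups and none passed the test. In HOXA the log2 fold changes given here were -0.23 for HOXA2, -0.14 for HOXA3, -0.06 for HOXA5, 0.33 for HOXA6 and -0.03 for HOXA10. In HOXB they were 0.24 for HOXB5, -0.06 for HOXB6, 0.20 for HOXB8 and -0.16 for HOXB13. In HOXC they were -0.04 for HOXC4, 0.21 for HOXC11 and -0.05 for HOXC13, and in HOXD -0.22 for HOXD8. Standard errors of the 27 were 0.08 (HOXC10) to 0.32 (HOXA6 and HOXB8), so that for the genes near 15 counts a library changes of the size seen in HOXC9 could have been missed.

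The fold changes moved with GC content across the transcriptome, and this touches the HOX genes, whose median GC content of 54.5% (range 47.5% to 62.7%) was above the 47.9% of all tested genes. Among all tested genes the median log2 fold change was 0.16 below 45% GC, -0.08 at 50% to 55%, -0.17 at 55% to 60% and -0.25 at 60% and above. The HOX genes had medians of 0.01 (11 genes at 50% to 55%) and -0.16 (11 genes at 55% to 60%). HOXC9, with a GC content of 55.7%, was far below the median of genes in its range, and HOXB2, with 57.2%, less so. With a GC correction fitted in each library, 2 of 12797 genes (0.0156%) were called and none of the HOX genes. HOXC9 then had a log2 fold change of -0.71 (95% interval -1.04 to -0.38, edgeR adjusted p = 0.0613), HOXB2 of -0.22 (edgeR adjusted p = 0.264) and HOXB7 of 0.34 (edgeR adjusted p = 0.192). The median of the 27 became 0.01, with 13 genes below 0 and 14 above. The part of GC content in these results was not tested further.

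**Figure D5:**
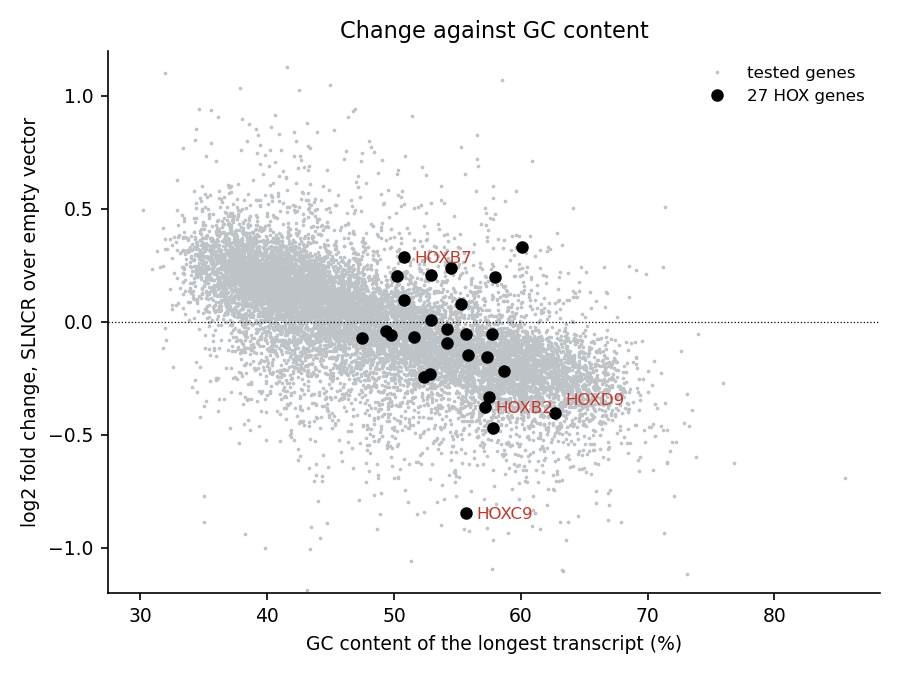
Log2 fold change (SLNCR over empty vector) against the GC content of the longest transcript, for 12780 tested genes (grey) and the 27 tested HOX genes (black); 10 genes lie beyond the vertical axis and 7 have no GC value. The grey cloud slopes downwards, and HOXC9 lies below it at a GC content of 55.7%.

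Among genes of like depth HOXC9 was near the edge. Of 1240 tested genes with a mean of 50 to 100 counts, 5.56% were called and 2, HOXC9 included, had a log2 fold change as low as that of HOXC9, and over all 12797 genes 40 did.

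HOX proteins bind DNA together with the TALE homeodomain partners PBX, MEIS and PKNOX. Of 14 tested cofactor genes 1 (7.14%) was called lower and none higher, beside 7.67% lower and 8.84% higher among all tested genes, with a median log2 fold change of -0.02 beside -0.01. The one was the acetyltransferase CREBBP, with 224 ± 7.76 CPM in SLNCR libraries and 255 ± 8.97 in empty vector libraries (log2 fold change -0.19, edgeR adjusted p = 0.0257). With the GC correction CREBBP was at -0.05 (edgeR adjusted p = 0.661). MEIS2 (27.9 CPM with SLNCR, 27.6 with empty vector) was expressed and not called, as was HMGB1, the most abundant member, with 364 CPM in SLNCR libraries and 335 in empty vector libraries.

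Of 25 tested writers and removers of HOX chromatin marks, 3 (12%) were lower and 2 (8%) higher, near the shares of 7.67% and 8.84% among all tested genes, with a median log2 fold change of 0.004. KMT2B, a Trithorax methyltransferase, had 106 ± 6.86 CPM with SLNCR and 128 ± 2.65 with empty vector (log2 fold change -0.27, edgeR adjusted p = 0.0151). HCFC1, a partner of these methyltransferases and the most abundant of the list (612 CPM with SLNCR, 700 with empty vector, -0.19, edgeR adjusted p = 0.0168), and MLLT1, a transcription elongation factor (-0.28, edgeR adjusted p = 0.0201), were also lower. The Polycomb genes SUZ12, with 163 ± 16.2 CPM in SLNCR libraries and 137 ± 7.61 in empty vector libraries (0.25, edgeR adjusted p = 0.0270), and RNF2 (0.33, edgeR adjusted p = 0.0173) were higher. The 3 lower genes had GC contents of 61.5% to 63.5% and the 2 higher ones of 38.0% and 38.1%. With the GC correction, which left 2 of 12797 genes called, none of the 5 was called. KMT2B was then at -0.02, HCFC1 at 0.03, MLLT1 at -0.03, SUZ12 at 0.05 and RNF2 at 0.13. KMT2A and EZH2, the best known writers of the activating and the repressive mark, did not pass the test at 0.004 and 0.08.

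Retinoic acid, made by aldehyde dehydrogenases and read by RAR and RXR receptors, is a known inducer of HOX genes. Of 8 tested genes of this input 1, the receptor gene RXRB, was lower (29.95 ± 2.62 CPM with SLNCR, 35.8 ± 0.85 with empty vector, log2 fold change -0.26, edgeR adjusted p = 0.0496) and none higher, with a median of -0.10. That is 12.5% lower, beside 7.67% of all tested genes, and with the GC correction RXRB was at -0.08 (edgeR adjusted p = 0.669). ALDH1A3, the most abundant, had 274 CPM with SLNCR and 264 with empty vector, and RARA 54.2 with SLNCR and 59.0 with empty vector, both not called.

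Of 8 tested homeobox genes of the same class outside the clusters none was called, beside 16.5% of all tested genes in either direction, with a median log2 fold change of -0.15. MSX1 (36.0 CPM with SLNCR, 38.7 with empty vector) and DLX1 (20.1 with SLNCR, 24.0 with empty vector) were the most abundant per kilobase. Of 12 tested non-coding genes within the HOX clusters none was called either, with a median of -0.11, and the most abundant per kilobase were HOXA10-AS (11.9 CPM with SLNCR, 12.1 with empty vector) and HOXB-AS1 (6.25 with SLNCR, 6.08 with empty vector). HOTAIR, the non-coding RNA of the HOXC cluster, averaged 0.71 CPM with SLNCR and 0.45 with empty vector and was too low to test.

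Genes that flank the clusters were tested to set the HOX genes beside their surroundings. Of 14, 3 (21.4%) were higher and none lower, beside 8.84% higher and 7.67% lower among all tested genes, with a median log2 fold change of 0.09. SNX10, beside HOXA, had 42.8 ± 5.86 CPM in SLNCR libraries and 31.0 ± 2.89 in empty vector libraries (0.46, edgeR adjusted p = 0.0139). TAX1BP1, on the same chromosome, was at 0.20 (edgeR adjusted p = 0.0237), and LNPK, beside HOXD, at 0.25 (edgeR adjusted p = 0.0476). With the GC correction, which left 2 of 12797 genes called, none of the 3 was called. SNX10 was then at 0.23, LNPK at 0.05 and TAX1BP1, little changed, at 0.21 (edgeR adjusted p = 0.0613). Near HOXC, SMUG1 at -0.07 and CBX5 at 0.12 did not pass the test, nor did HNRNPA1 (986 CPM with SLNCR, 1094 with empty vector) and COPZ1 (163 with SLNCR, 157 with empty vector), the most abundant of the list per kilobase.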

How the data were processed

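The authors deposited raw counts of reads for each gene, whole numbers with unequal totals. The submitters' processing notes name build GRCh38, cutadapt, STAR and DESeq2 1.24.07. The counter, strand setting and annotation were not given in the sources used here. Per the labels' protocols, ribosomal RNA was depleted and both ends were read at 150 bases.

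Of 20238 rows, 1857 name no gene (2.15% to 2.59% of counts) and were left out, as were 63 rows (0 of them HOX) in 22 runs of neighbouring rows with identical counts. Of the 18318 genes left, 18314 were matched to a symbol in GENCODE release 29 or, failing that, in another list of gene names. Groups were compared with edgeR 4.0.16 (quasi-likelihood F-test, robust, TMM factors, default expression filter, R 4.3.3), two-sided, and p-values were adjusted by Benjamini-Hochberg over 12797 genes, with 0.05 as the threshold. Each sentence's adjusted p is from that fit unless the GC correction, a left-out library, the block or another alternative is named. Each of those was fitted and adjusted anew over its own tested genes. The GC correction used a loess curve (span 0.5, degree 2) of each library's log2 deviations against GC content as an offset. Levels are TMM-scaled CPM, and for comparisons between genes CPM per kilobase of merged exon. Ratios within HOXC were tested by an exact permutation over libraries.

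The biological coefficient of variation was 5.65%. Between libraries of one group the chi-square divided by its degrees of freedom was 1.79 to 6.97, highest between SLNCR 2 and 3, so none was counted as a copy of another. On simulated counts of this comparison (12684 genes), edgeR recovered 83% of log2 changes of 0.5 and 98% of changes of 1. The changes were planted in genes above a minimum count from the whole transcriptome, without a GC trend. The rates therefore do not carry over to single HOX genes. HOX genes with a mean of at least 10 counts are named, except 1 that, like some other items, is not reported here; from the other lists, every called member and the 2 most abundant per kilobase are named, with some others chosen after their values were seen. The members and lists were chosen with earlier results of these data known. Alternatives were DESeq2 1.42.0, other scalings and filters, the GC correction, a replicate block, other thresholds and leaving out each library. The GC correction with the block and the lengths without shared exons were added after the data were seen.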

Additional observations from a re-analysis of the deposited data

How the results depend on the processing

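Over all genes, 2112 were called, against 3523 with the replicate number as a block, 2 with the GC correction, 409 with both, 2 at a threshold of 0.01, 3642 at 0.1, and 1 to 3366 when each library was left out. Of the 27 tested HOX genes 2 were called, against 1 (HOXB2) with DESeq2, 0 with the GC correction, 1 (HOXC9) with the GC correction and block, 0 at a threshold of 0.01, and 0 to 3 when each library was left out. With no filter on low counts, with the block or without SLNCR library 2, the third was HOXB7. DESeq2 gave HOXC9 no adjusted p (unadjusted p = 0.000328, from the DESeq2 fit over all genes). HOXC9 kept its direction under every alternative run. Its log2 fold change of -0.85 missed the threshold of 0.01 and, at -0.71 with the GC correction, that of 0.05, and it was -0.95 to -0.75 when each library was left out. The difference of HOXC9 from its cluster was -0.97 to -0.57 under 14 alternatives.

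Genes near 0 changed sign. With the GC correction HOXA10 was at 0.078, HOXB13 at 0.0075, HOXB4 at 0.020, HOXB6 at 0.082 and HOXC13 at 0.12 on the log2 scale, and with the block added they were at 0.077, 0.0046, 0.019, 0.071 and 0.12. With upper quartile factors HOXC10 was at -0.0031. When each library was left out, the ranges were -0.12 to 0.042 for HOXA10, -0.11 to 0.0053 for HOXA5, -0.11 to 0.014 for HOXB3, -0.19 to 0.0020 for HOXB4, -0.23 to 0.13 for HOXB6, -0.025 to 0.27 for HOXB9, -0.032 to 0.055 for HOXC10, -0.14 to 0.039 for HOXC4 and -0.035 to 0.18 for HOXC8. The causes were not tested. The number of expressed HOX genes was 18 to 33 for limits of 50 and 1 mean counts.

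Same-numbered libraries did not deviate together in all cases (correlations of 0.13, -0.0094 and 0.32), so the numbers were not taken as pairs. The block, tried only as an alternative, gave the HOXC9 ratio difference of -0.83 an exact permutation p of 0.25, the smallest that 8 splits allow, and in the edgeR fit it gave HOXC9 an adjusted p of 0.000693. For genes near 15 counts a library, counting error limits what can be seen.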
